A study of Mus musculus with 9 samples.

Results

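The mitochondrial carrier family was measured in mouse lung after exposure to the mould Aspergillus fumigatus. Its members were taken as all protein-coding rows whose symbol is Slc25a followed by a digit, or is Ucp1, Ucp2 or Ucp3. This gave 49 of the 18984 genes listed, and 44 of them reached the level needed for a test (1 FPKM or more in 3 or more of the libraries). FPKM is the number of sequenced fragments from a gene, scaled to its transcript length and to the library. Whole lungs of C57BL/6 mice were taken 24 hours after material was placed in the trachea. Of the 9 libraries, 3 came from mice given hyphal fragments (the filamentous form of the fungus), 3 from mice given conidia (its inhaled spores) and 3 from controls given normal saline. The labels give no age, no fungal dose and no word on whether each library stands for its own mouse, so p-values may measure technical spread.

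Mitochondrial carriers are small membrane proteins built from a repeated pair of helices. Nearly all sit in the inner mitochondrial membrane, where they exchange nucleotides, phosphate, carboxylates, amino acids, cofactors and iron between the matrix and the rest of the cell. The uncoupling proteins belong to the same family, and Ucp1 is the member that lets protons leak back to make heat in brown fat. In lung, the carriers serve epithelial, endothelial and immune cells alike, and Ucp2 is known for its high expression in leukocytes.

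Lung-defining transcripts were abundant in every library: Sftpc of alveolar type 2 cells was at 10141 FPKM or more and Cldn5 of endothelium at 170.15 FPKM or more. The summed FPKM of a library was 492540 to 561250, and the approximate depth was 21100000 to 23400000 fragments. The level of the median gene was 3.60 to 4.05 FPKM in the hyphae libraries, 5.21 to 6.05 in the conidia libraries and 5.88 to 6.32 in the control libraries. On the log2 scale the median change of all 13761 genes tested was −0.37 for hyphae against control, −0.29 for hyphae against conidia and −0.07 for conidia against control. Changes are therefore given as deposited and, where marked as rescaled, after each library was divided by a median-of-ratios factor, which puts the median gene near 0.

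Levels within the family spanned several orders of magnitude. Averaged over the 9 libraries, 4 members were at 100 FPKM or more, 20 between 10 and 100, 18 between 1 and 10, and 7 under 1. The top 4 were Ucp2, the phosphate carrier Slc25a3 and the ADP/ATP carriers Slc25a4 and Slc25a5, which together made up 57.6 to 70.1% of the family's summed FPKM. The summed FPKM of the family was 1510 to 1700 in the hyphae libraries, 1530 to 1710 in the conidia libraries and 1410 to 1710 in the control libraries, so these ranges overlapped. The 5 members below the level for a test were Slc25a2, Slc25a21, Slc25a31, Slc25a41 and Slc25a48. Slc25a2, an ornithine carrier, was at 0.36, 0.39 and 0.61 FPKM in the hyphae libraries, at 0.19, 0.00 and 0.08 in the conidia libraries and at 0.12, 0.20 and 0.20 in the control libraries, and the other 4 stayed at 0.45 FPKM or lower in every library.

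Hyphae were compared with saline to see which carriers had changed 1 day after the invasive form was given. In limma, 8 of the 44 members tested rose (18.2%) and 23 fell (52.3%) at an adjusted p under 0.05, against 14.9% of all genes tested that rose and 50.0% that fell. The shares of the family thus lay close to those of all genes. In whole lung, fewer cells of a type and less RNA per cell cannot be told apart. The median log2 change was −0.52 for the family and −0.37 for all genes. After rescaling 11 members rose (25%) and 17 fell (38.6%), against 30.0% and 29.3% of all genes, and the family's median was −0.18. All 8 risers and 17 of the 23 fallers kept their call after rescaling. The calls lost were those of Slc25a10, Slc25a15, Slc25a20, Slc25a38, Slc25a39 and Slc25a44, and the risers gained were Slc25a3, Slc25a24 and Slc25a37. On the log2(FPKM + 1) scale, which understates changes of low genes, a fold of at least 2 was reached by 2 risers, Slc25a25 and Slc25a33, and by 10 fallers, led by Slc25a45. Of all 13761 genes tested, 660 risers and 2323 fallers reached that fold, so falls outnumbered rises there too.

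**Figure D1:**
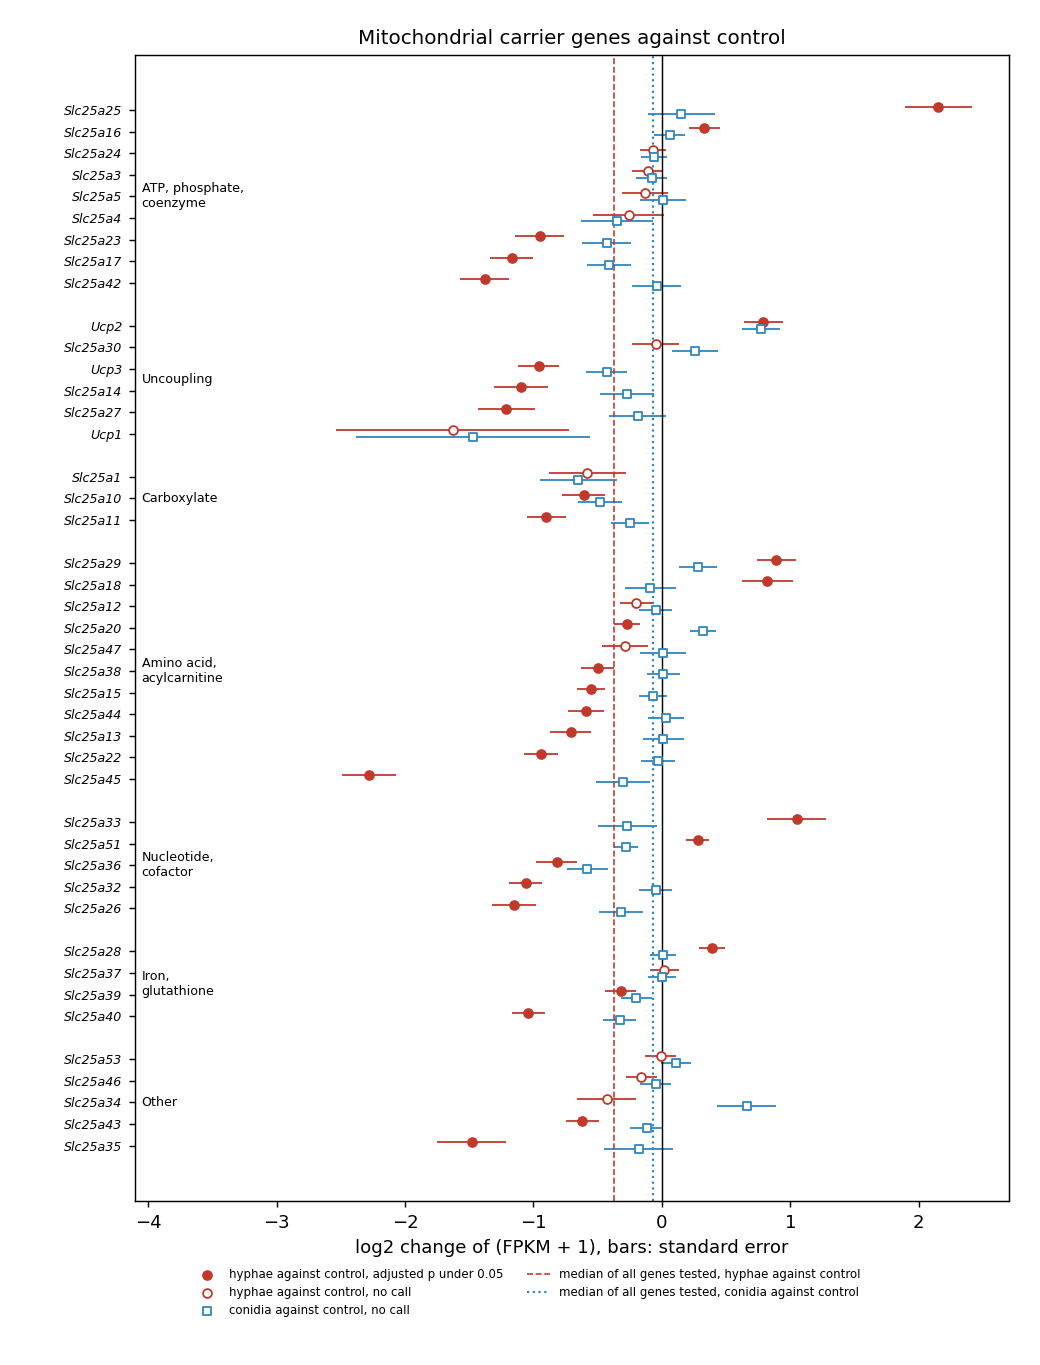
Log2 change of FPKM + 1 against control for the carriers tested that are reported here, grouped by what they carry. Red circles are hyphae against control (filled where the adjusted p was under 0.05), blue squares are conidia against control, bars are standard errors, and the vertical dashed and dotted lines mark the medians of all genes at −0.37 and −0.07. Slc25a25 lies farthest right at 2.15 and Slc25a45 farthest left at −2.28 for hyphae, while every conidia marker is open because no member was called.

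The carriers at both ends of this range stood apart from control in every hyphae library. Slc25a25 (Entrez 227731), a calcium-regulated carrier of ATP-magnesium and phosphate, was at 42.46, 48.29 and 63.83 FPKM in the hyphae libraries, at 18.16, 7.82 and 11.91 in the conidia libraries and at 10.60, 10.95 and 10.55 in the control libraries. Its lowest hyphae library was more than 2 times its highest conidia library. The log2 change against control was 2.15 (SE 0.26, adjusted p = 0.000182 in limma; 2.56 rescaled), which took it to rank 6 of the family by mean level in hyphae lungs, against rank 24 in control lungs. Slc25a45 (Entrez 107375), a carrier placed with the amino acid and acylcarnitine group, was at 1.88, 1.59 and 1.31 FPKM in the hyphae libraries, at 6.17, 11.28 and 10.89 in the conidia libraries and at 10.55, 13.18 and 11.01 in the control libraries. The hyphae libraries were below all others, with a log2 change of −2.28 against control (SE 0.21, adjusted p = 5.45e-05; −1.96 rescaled).

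Slc25a33 (Entrez 70556), a pyrimidine nucleotide carrier, was at 15.38, 15.62 and 20.27 FPKM in the hyphae libraries, at 5.87, 5.35 and 7.49 in the conidia libraries and at 8.71, 5.01 and 10.22 in the control libraries. All hyphae libraries were above all others, and the log2 change against control was 1.05 (SE 0.23, adjusted p = 0.00350; 1.44 rescaled). Ucp2 (Entrez 22228), the most abundant carrier in every group, was at 692.07, 635.95 and 532.25 FPKM in the hyphae libraries, at 689.26, 485.96 and 677.71 in the conidia libraries and at 363.67, 361.20 and 345.13 in the control libraries. Both exposed groups lay above control and overlapped each other. For hyphae the log2 change was 0.79 (SE 0.15, adjusted p = 0.00194; 1.22 rescaled). Ucp3 (Entrez 22229), a member best known from skeletal muscle, was low throughout, at 0.43, 0.34 and 0.44 FPKM in the hyphae libraries, at 0.67, 1.18 and 1.27 in the conidia libraries and at 2.26, 1.31 and 1.70 in the control libraries. It fell by 0.96 on the log2 scale in hyphae lungs (SE 0.16, adjusted p = 0.000992; −0.77 rescaled), and by 1.86 when 0.1 FPKM in place of 1 FPKM was added before the logarithm. No hyphae library of Ucp3 reached 1 FPKM, so it entered the test through the other groups.

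**Figure D2:**
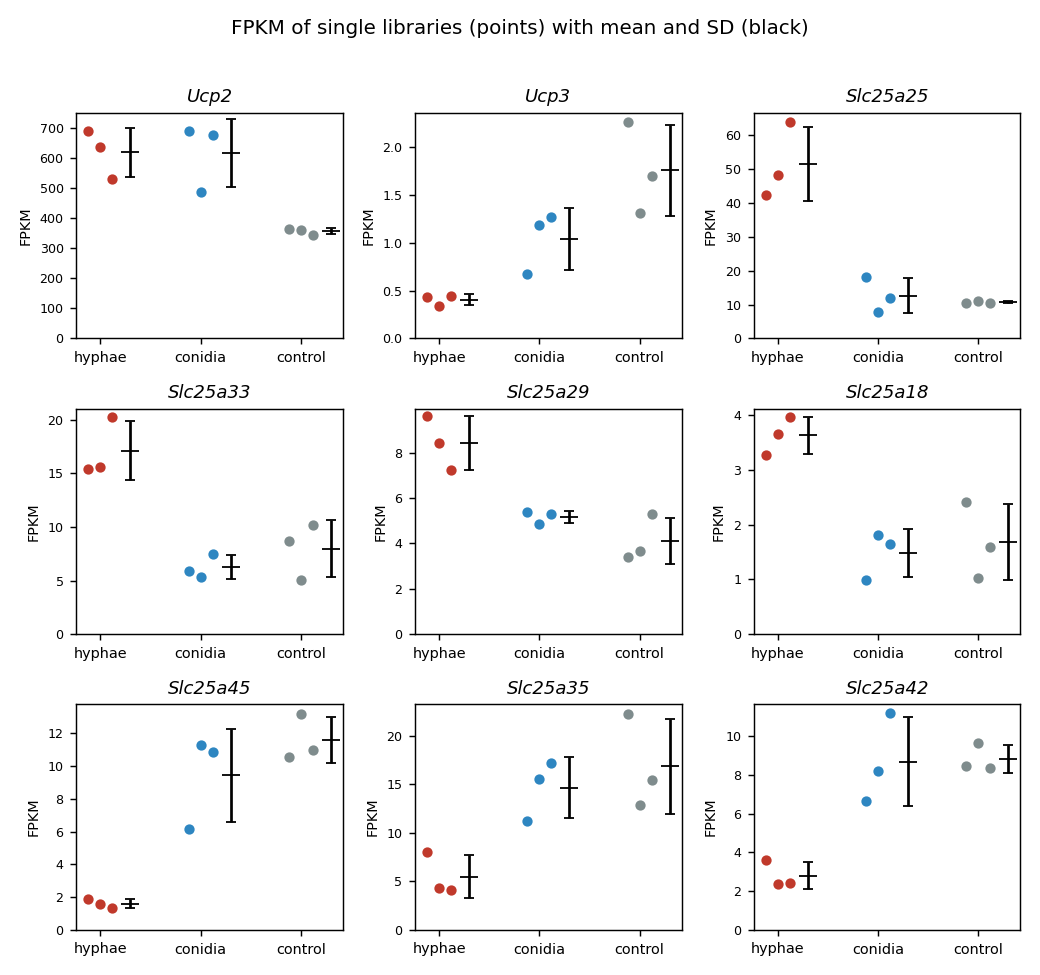
FPKM of 9 carriers in single libraries (points) for hyphae, conidia and control, with the mean and SD of each group in black and each vertical axis starting at 0. Ucp2 is high in both exposed groups, Slc25a25, Slc25a33, Slc25a29 and Slc25a18 are high in the hyphae libraries, and Ucp3, Slc25a45, Slc25a35 and Slc25a42 are low there.

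The bases just before the start of these carriers are shown because the genes moved in different ways, and because Ucp2 and Ucp3, neighbours on chromosome 7, moved in opposite directions. RefSeq promoter windows of 250 bases on GRCm38.p6, a build other than that of the deposited values, were at hand for 38 of the 49 members. They are written from 5′ to 3′ on the strand of the gene, and capitals mark matches to the motifs searched.
Slc25a25, start 1, chr2:32451471-32451720, minus strand: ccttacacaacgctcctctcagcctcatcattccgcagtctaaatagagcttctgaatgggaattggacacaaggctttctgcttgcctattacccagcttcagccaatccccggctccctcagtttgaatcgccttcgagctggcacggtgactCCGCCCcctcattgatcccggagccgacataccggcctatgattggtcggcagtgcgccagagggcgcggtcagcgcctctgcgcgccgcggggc
Slc25a25, start 3, chr2:32424067-32424316, minus strand: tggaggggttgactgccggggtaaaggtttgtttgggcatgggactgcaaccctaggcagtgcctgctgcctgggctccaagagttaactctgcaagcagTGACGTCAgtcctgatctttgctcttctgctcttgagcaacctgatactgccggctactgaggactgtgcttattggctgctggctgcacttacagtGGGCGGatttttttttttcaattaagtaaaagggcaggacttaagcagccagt
Slc25a33, chr4:149774268-149774517, minus strand: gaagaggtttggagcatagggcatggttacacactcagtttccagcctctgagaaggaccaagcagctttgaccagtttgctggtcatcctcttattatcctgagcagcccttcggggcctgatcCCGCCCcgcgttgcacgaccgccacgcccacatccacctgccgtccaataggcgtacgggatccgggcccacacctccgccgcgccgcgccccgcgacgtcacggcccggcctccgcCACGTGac
Ucp2, chr7:100493108-100493357, plus strand: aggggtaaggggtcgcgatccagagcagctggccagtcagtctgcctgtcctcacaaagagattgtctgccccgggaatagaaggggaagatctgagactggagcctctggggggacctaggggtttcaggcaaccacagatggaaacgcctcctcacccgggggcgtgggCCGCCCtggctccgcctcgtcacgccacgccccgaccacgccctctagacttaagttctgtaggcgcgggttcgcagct
Ucp3, chr7:100472741-100472990, plus strand: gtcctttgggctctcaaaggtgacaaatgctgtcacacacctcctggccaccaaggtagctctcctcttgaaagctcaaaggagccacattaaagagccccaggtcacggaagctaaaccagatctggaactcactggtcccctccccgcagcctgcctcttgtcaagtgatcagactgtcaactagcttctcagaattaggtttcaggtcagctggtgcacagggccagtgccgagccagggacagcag
Slc25a45, chr19:5877572-5877821, plus strand: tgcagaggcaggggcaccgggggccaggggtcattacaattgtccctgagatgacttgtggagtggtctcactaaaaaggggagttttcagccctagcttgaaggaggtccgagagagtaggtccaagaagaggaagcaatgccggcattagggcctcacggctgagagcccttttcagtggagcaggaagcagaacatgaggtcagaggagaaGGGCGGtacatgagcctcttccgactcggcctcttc

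The motifs were searched on both strands in 48 windows of the family and in all 32851 RefSeq windows of this length, and a match is a description of letters only. The cAMP response element TGACGTCA was found in the Slc25a25 window of start 3, 150 bases before the start, and in Slc25a36, a share of 4.17% of the family's windows and 1.55% of all. The E-box CACGTG was in 16.7% of the family's windows, Slc25a33 included, and in 6.02% of all. The Sp1 box GGGCGG was in 68.8% of the family's windows and 32.7% of all, and it was present in each printed window other than that of Ucp3. The Slc25a25 window of start 2, which is not printed, held no match to any motif searched. The ETS box CCGGAAG was in 10.4% of the family's windows and 6.91% of all, and the AP-1 site TGANTCA was in 4.17% and 6.75%. The letters of the NF-kB site (GGGA, any base, then TTTCC), of the NRF1 site (GCGCA followed by TGCGC) and of the ERR site TCAAGGTCA were in no window of the family, and in 0.356%, 0.782% and 0.387% of all windows. No motif overlapped another in the printed windows.

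In hyphae lungs 14.9% of all genes tested rose and 50.0% fell (30.0% and 29.3% after rescaling). The groups of carriers that follow are small, and none was tested against these shares. Among the uncoupling proteins and their closest relatives, 1 of 6 members tested rose in hyphae lungs (Ucp2) and 3 fell, with or without rescaling. Besides Ucp3 these were Slc25a27 (−1.21; −0.88 rescaled) and Slc25a14 (−1.10; −0.81 rescaled), which are relatives best known from brain. Slc25a30 did not pass the test, with 2.97, 4.02 and 2.37 FPKM in the hyphae libraries and 2.55, 3.14 and 4.11 in the control libraries. Ucp1 was at 0.13, 0.29 and 0.70 FPKM in the hyphae libraries, at 0.03, 0.03 and 2.26 in the conidia libraries and at 18.36, 0.10 and 2.45 in the control libraries. Its level was set by single libraries, and the log2 change of −1.63 had an SE of 0.91 and an adjusted p of 0.142. Without control replicate 2 it was −2.59, with an adjusted p of 0.0192, and without control replicate 1 or 3 Ucp1 did not reach the level needed for a test. The summed FPKM of 8 adipose markers was 61.9, 33.5 and 799 in the hyphae libraries, 73.8, 179 and 549 in the conidia libraries and 1310, 63.2 and 196 in the control libraries, so control replicate 1 was highest in both. Elovl3 was at 0 in all hyphae libraries, 0 of the 6 adipose markers tested were called, and their part in the Ucp1 values was not tested.

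The summed neutrophil markers, like Ucp2, lay above control in both exposed groups. Of 12 tested, 10 rose in hyphae lungs, with or without rescaling. Among all genes, 14.9% rose and 50.0% fell there (30.0% and 29.3% after rescaling). The summed FPKM of the 12 was 704 to 6200 in the hyphae libraries, 877 to 3170 in the conidia libraries and 136 to 158 in the control libraries, with none at 0 in a whole group. The summed FPKM of 10 macrophage and monocyte markers was 84.7 to 120 in the hyphae libraries, 150 to 154 in the conidia libraries and 113 to 135 in the control libraries, so the conidia libraries lay above both other groups. Of these 10 markers 4 fell and 0 rose in hyphae lungs (2 fell and 2 rose after rescaling), and 0 were called after conidia. After conidia 0.596% of all genes rose and 0.0945% fell. Within the hyphae group the neutrophil sum was lowest in replicate 1 (704), where Ucp2 was highest, and highest in replicate 3 (6200), where Ucp2 was lowest. Within the conidia group both ran in the same order, lowest in replicate 2 (sum 877, Ucp2 485.96 FPKM) and highest in replicate 1 (3170 and 689.26). Whether the mix of cells accounts for the Ucp2 difference was not tested.

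The carriers of adenine nucleotides, coenzyme A and phosphate moved both ways. Of 9 tested, 2 rose and 3 fell in hyphae lungs (4 and 3 after rescaling). The shares of all genes were 14.9% and 50.0% (30.0% and 29.3% after rescaling). Besides Slc25a25, Slc25a16, which is linked to coenzyme A transport, rose by 0.33 (adjusted p = 0.0380; 0.74 rescaled), a call that was lost without any 1 of 6 libraries in turn, among them hyphae replicate 1, without which the change was 0.20. The fallers were the mitochondrial coenzyme A carrier Slc25a42 (−1.38; −1.04 rescaled), the peroxisomal carrier Slc25a17 (−1.17; −0.76 rescaled) and the ATP-magnesium/phosphate carrier Slc25a23 (−0.95; −0.53 rescaled). Slc25a42 was at 3.61, 2.38 and 2.41 FPKM in the hyphae libraries, at 6.66, 8.19 and 11.19 in the conidia libraries and at 8.44, 9.67 and 8.34 in the control libraries. The hyphae libraries were again below all others.

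The abundant members of this group differed little as deposited. Slc25a3, which brings phosphate into the matrix for ATP synthesis, was at 211.65, 193.91 and 231.88 FPKM in the hyphae libraries, at 204.05, 213.27 and 233.66 in the conidia libraries and at 260.92, 208.24 and 220.59 in the control libraries. Its log2 change of −0.11 turned to 0.32 after rescaling (adjusted p = 0.0382), and that of Slc25a24, another ATP-magnesium/phosphate carrier, was −0.07 as deposited and 0.34 rescaled (adjusted p = 0.00454). Slc25a5, the ADP/ATP carrier of dividing cells, was at 92.33 to 141.89 FPKM in the hyphae libraries, 103.65 to 152.71 in the conidia libraries and 113.97 to 138.39 in the control libraries. Slc25a4, the form of heart and muscle, was at 118.91, 97.34 and 202.37 FPKM in the hyphae libraries, at 117.45, 127.70 and 129.25 in the conidia libraries and at 227.24, 132.10 and 133.49 in the control libraries, so 1 hyphae and 1 control library stood out. The summed FPKM of 8 cardiac muscle markers was 251, 116 and 1680 in the hyphae libraries, 285, 333 and 427 in the conidia libraries and 1500, 469 and 535 in the control libraries, with its highest values in the same 2 libraries, and its part in Slc25a4 was not tested. None of these markers was at 0 in a whole group and 0 of 8 were called. Slc25a4 and Slc25a5 are close paralogs, and how the counting treated fragments that could come from either was not given in the sources used here, so their levels are uncertain.

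**Figure D3:**
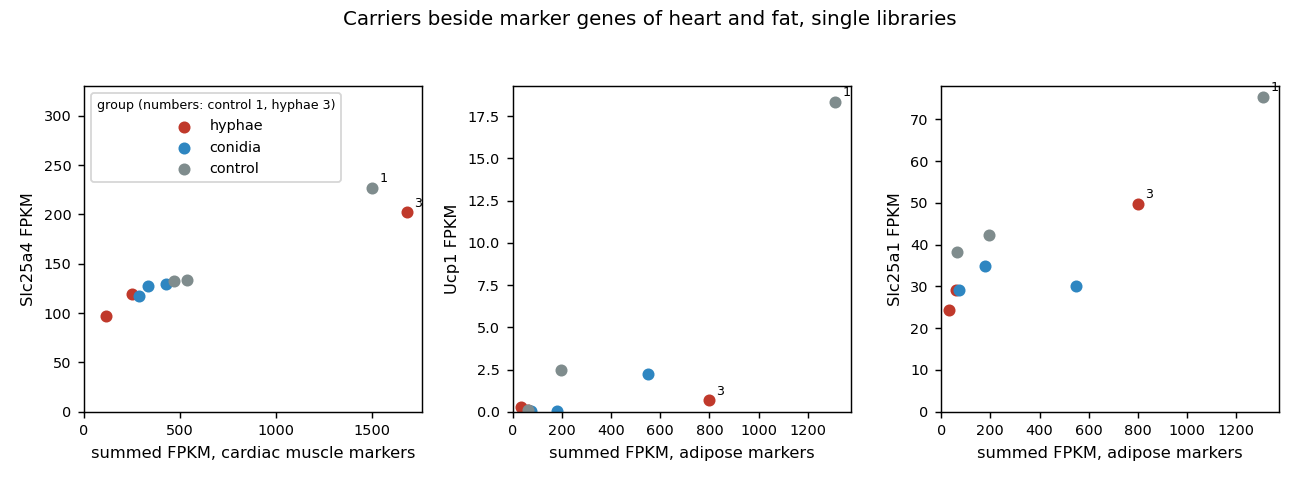
FPKM of Slc25a4 against the summed FPKM of cardiac muscle markers (left), and of Ucp1 (middle) and Slc25a1 (right) against the summed FPKM of adipose markers, in single libraries coloured by group, with control replicate 1 and hyphae replicate 3 numbered. Both numbered libraries lie at the high end of the horizontal axis in each plot, and control replicate 1 has the highest value of all 3 carriers.

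All 3 tested carboxylate carriers had negative log2 changes as deposited, as did the median of all genes (−0.37). The oxoglutarate/malate carrier Slc25a11 fell by 0.90 on the log2 scale in hyphae lungs (adjusted p = 0.000985; −0.48 rescaled), with 27.01, 18.53 and 25.80 FPKM in the hyphae libraries and 48.77, 44.06 and 41.06 in the control libraries. The dicarboxylate carrier Slc25a10 fell by 0.61 (adjusted p = 0.0118), a call lost after rescaling (−0.20). The citrate carrier Slc25a1, which exports citrate for lipid synthesis, was at 29.21, 24.40 and 49.81 FPKM in the hyphae libraries, at 29.27, 35.01 and 30.18 in the conidia libraries and at 75.40, 38.37 and 42.32 in the control libraries. It did not pass the test (−0.58, adjusted p = 0.116), and its value rested on single libraries: it was −0.28 (adjusted p = 0.378) without control replicate 1, −0.37 (adjusted p = 0.340) without hyphae replicate 2 and −0.87 (adjusted p = 0.0218), a call, without hyphae replicate 3. After rescaling it was −0.16. Its highest hyphae and control libraries were those with the highest adipose marker sums in their groups, given with Ucp1. The same 2 libraries had the highest cardiac marker sums (1680 and 1500). The conidia group went another way: Slc25a1 was highest in replicate 2 (adipose sum 179) and lower in replicate 3 (adipose sum 549). The part of either tissue in Slc25a1 was not tested.

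Of 11 amino acid and acylcarnitine carriers tested, 2 rose and 7 fell in hyphae lungs (2 and 3 after rescaling). Among all genes, 14.9% rose and 50.0% fell (30.0% and 29.3% after rescaling). Slc25a29, a carrier of basic amino acids, was at 9.62, 8.43 and 7.23 FPKM in the hyphae libraries, at 5.37, 4.84 and 5.29 in the conidia libraries and at 3.42, 3.66 and 5.29 in the control libraries (log2 change 0.89, SE 0.15, adjusted p = 0.00103; 1.26 rescaled). Slc25a18, a glutamate carrier, was at 3.28, 3.65 and 3.96 FPKM in the hyphae libraries, at 0.99, 1.82 and 1.64 in the conidia libraries and at 2.42, 1.03 and 1.60 in the control libraries (0.82, SE 0.20, adjusted p = 0.00688; 1.13 rescaled). For both genes all hyphae libraries lay above all others. Slc25a22, the other glutamate carrier, went the opposite way, with 6.67, 5.19 and 6.55 FPKM in the hyphae libraries, 11.52, 11.50 and 14.34 in the conidia libraries and 14.30, 12.67 and 11.17 in the control libraries (−0.94, adjusted p = 0.000393; −0.56 rescaled).

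Apart from Slc25a45 and Slc25a22, the fallers of this group changed by less. Citrin, Slc25a13, an aspartate/glutamate carrier of the malate-aspartate shuttle, fell by 0.71 on the log2 scale and kept its call after rescaling (−0.42). The branched-chain amino acid carrier Slc25a44 (−0.59), the ornithine carrier Slc25a15 (−0.55) and the glycine carrier Slc25a38 (−0.50) lost theirs, at −0.21, −0.25 and −0.10. The carnitine/acylcarnitine carrier Slc25a20, which brings long-chain fatty acids in for oxidation, was at 15.20, 13.95 and 13.93 FPKM in the hyphae libraries, at 21.72, 20.75 and 23.78 in the conidia libraries and at 17.58, 19.42 and 15.69 in the control libraries. Its libraries thus stood in 3 separate ranges, lowest in hyphae lungs. Its log2 change against control, −0.27 (adjusted p = 0.0380), turned to 0.14 after rescaling and lost its call without control replicate 1 or 2 or hyphae replicate 2 or 3 (adjusted p = 0.0846 to 0.144). Slc25a12 (−0.20) and Slc25a47 (−0.29) did not pass the test, and the value of Slc25a47 rested on single hyphae libraries, at −0.47 (adjusted p = 0.0242) without hyphae replicate 1 and −0.17 (adjusted p = 0.469) without hyphae replicate 2.

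Of the nucleotide and cofactor carriers described here, 2 were higher and 3 lower in hyphae lungs, with or without rescaling. The shares of all genes were 14.9% and 50.0% (30.0% and 29.3% after rescaling). Slc25a51, which brings NAD into mitochondria, was at 36.16, 39.27 and 35.03 FPKM in the hyphae libraries, at 22.85, 25 and 26.47 in the conidia libraries and at 28.79, 30.34 and 31.53 in the control libraries (0.28, adjusted p = 0.0209; 0.70 rescaled). The 3 groups did not overlap, and the call was lost without control replicate 1 or 2 or hyphae replicate 2 (adjusted p = 0.0546 to 0.0791). The fallers were the S-adenosylmethionine carrier Slc25a26 (−1.15; −0.86 rescaled), the folate and FAD carrier Slc25a32 (−1.06; −0.75 rescaled) and the second pyrimidine nucleotide carrier, Slc25a36 (−0.82; −0.40 rescaled).

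Of the 4 iron and glutathione carriers, 1 rose and 2 fell in hyphae lungs (2 and 1 after rescaling). Among all genes, 14.9% rose and 50.0% fell (30.0% and 29.3% after rescaling). Mitoferrin 2, Slc25a28, which feeds iron to the matrix, was at 37.27, 40.38 and 40.25 FPKM in the hyphae libraries and at 31.74, 29.92 and 27.63 in the control libraries (0.39, adjusted p = 0.00784; 0.81 rescaled). Mitoferrin 1, Slc25a37, the form of red cell precursors, was at 19.02, 24.54 and 22.36 FPKM in the hyphae libraries and at 21.54, 22.17 and 20.90 in the control libraries (0.02; 0.43 rescaled, adjusted p = 0.0330). The summed FPKM of 7 erythroid markers was 6570 to 12800 in the hyphae libraries and 1670 to 13500 in the control libraries, with 0 of 4 tested called. The glutathione carrier Slc25a40 fell by 1.04 on the log2 scale (adjusted p = 0.000189; −0.73 rescaled). Its more abundant relative Slc25a39 fell by 0.32 with overlapping groups (adjusted p = 0.0406), was at 0.10 after rescaling, and lost its call without any 1 of 5 libraries in turn (adjusted p = 0.0576 to 0.127).

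Of 5 members with less settled substrates, 2 fell in hyphae lungs, with or without rescaling. The share of all genes that fell was 50.0% as deposited and 29.3% rescaled. Slc25a35 was at 8.05, 4.28 and 4.14 FPKM in the hyphae libraries, at 11.17, 15.60 and 17.21 in the conidia libraries and at 22.29, 12.88 and 15.41 in the control libraries (−1.48, SE 0.27, adjusted p = 0.00147; −1.10 rescaled). In the GENCODE annotation of GRCm38, 31.3% of its exon bases overlap Rangrf on the opposite strand, whose FPKM was 5.35, 2.25 and 3.98 in the hyphae libraries, 8.44, 9.87 and 12.41 in the conidia libraries and 12.64, 7.58 and 10.45 in the control libraries. The sources used here do not say whether the counting used strand, so the pair cannot be told apart. Overlaps with exons of another gene touched 15 of 49 members in all, and among the other members with one on the opposite strand the shared part reached 14.9% of exon bases in Slc25a33 and 8.92% in Slc25a11. Slc25a43 averaged 0.37 FPKM in the hyphae libraries and 1.10 in the control libraries, and fell by 0.62 on the log2 scale (adjusted p = 0.00321; −0.45 rescaled; −1.36 with a pseudocount of 0.1 FPKM). It reached 1 FPKM only in conidia replicate 2 (1.27) and control replicates 1 and 2 (1.24 and 1.11). It thus entered the test only through groups where it was high, and its call is a description. Only 12 of the 17 alternatives could test it, among them 6 of the 9 fits without 1 library. Slc25a34, Slc25a46 and Slc25a53 did not pass the test.

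**Figure D4:**
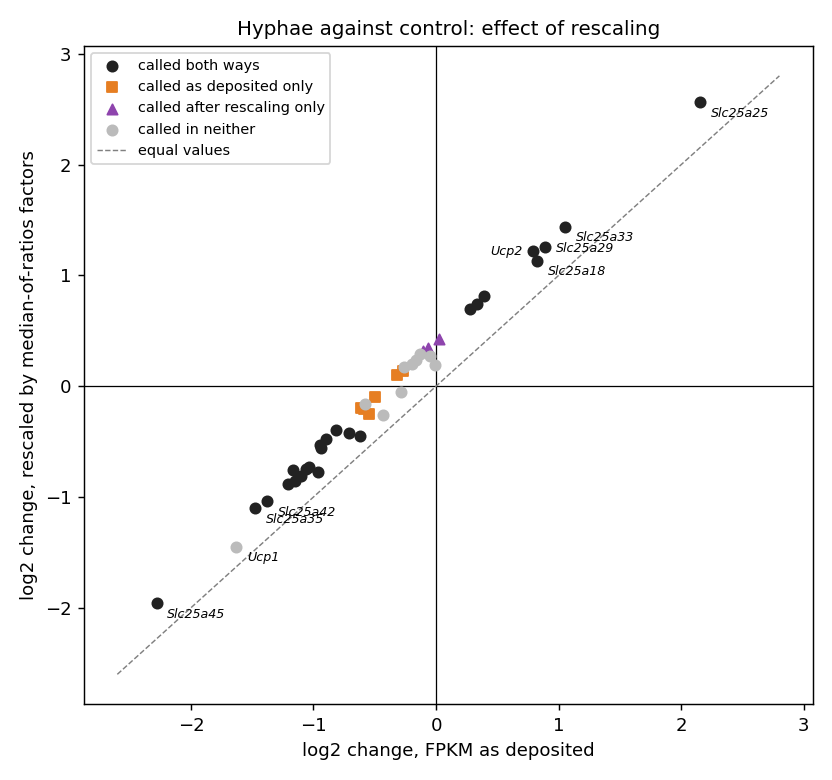
Log2 change of the carriers tested that are reported here, for hyphae against control, as deposited (horizontal axis) and after rescaling (vertical axis), with marker shapes for the calls and a dashed line of equal values. The points lie above the line, Slc25a25 at 2.15 and 2.56 and Slc25a45 at −2.28 and −1.96, and carriers called under only 1 of the scalings lie between −0.61 and 0.02 on the horizontal axis.

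Ratios of related carriers within a library do not depend on the scaling between libraries. A total of 11 ratios were compared by two-sided exact permutation tests in each of the 3 comparisons. With 3 libraries a group the smallest possible p is 0.1, and the lowest value adjusted over the 33 tests was 0.15, so none could reach 0.05. Slc25a25 over Slc25a24 was 2.63, 3.16 and 4.46 in the hyphae libraries, 1.31, 0.458 and 0.786 in the conidia libraries and 0.648, 0.663 and 0.695 in the control libraries. The hyphae ratios were above all others, as was also true of the next 4 ratios. Each of these pairs holds a member already called between hyphae and control, so the ratios are not separate evidence. At an unadjusted p under 0.05 in limma, 68.4% of all genes differed between these groups. How often other pairs of genes separate in this way was not counted, and 10 of the 11 ratios were at the smallest p for hyphae against control. Slc25a33 over Slc25a36 was 0.647, 0.788 and 1.16 in the hyphae libraries, 0.301, 0.178 and 0.318 in the conidia libraries and 0.222, 0.134 and 0.311 in the control libraries. Slc25a18 over Slc25a22 was 0.492, 0.703 and 0.605 in the hyphae libraries, 0.0859, 0.158 and 0.114 in the conidia libraries and 0.169, 0.0813 and 0.143 in the control libraries. In each pair the member that rose was the less abundant of the 2 in control lungs.

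Slc25a39 over Slc25a40 was 32.8, 32.3 and 38.0 in the hyphae libraries, 17.8, 18.7 and 19.6 in the conidia libraries and 16.5, 14.2 and 18.1 in the control libraries. Slc25a12 over Slc25a13 was 5.89, 6.08 and 12.1 in the hyphae libraries, 3.96, 3.94 and 4.28 in the conidia libraries and 4.40, 3.88 and 4.53 in the control libraries. Here it was the more abundant member that held its level better. Slc25a37 over Slc25a28 went the opposite way and was 0.510, 0.608 and 0.556 in the hyphae libraries, 0.869, 0.617 and 0.698 in the conidia libraries and 0.679, 0.741 and 0.756 in the control libraries. Ucp2 over Ucp3 was 1610, 1870 and 1210 in the hyphae libraries, 1030, 412 and 534 in the conidia libraries and 161, 276 and 203 in the control libraries, 3 ranges that did not overlap. The hyphae ratios divide by Ucp3 values of only 0.34 to 0.44 FPKM, so their size is imprecise. Slc25a4 over Slc25a5 overlapped between all groups.

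**Figure D5:**
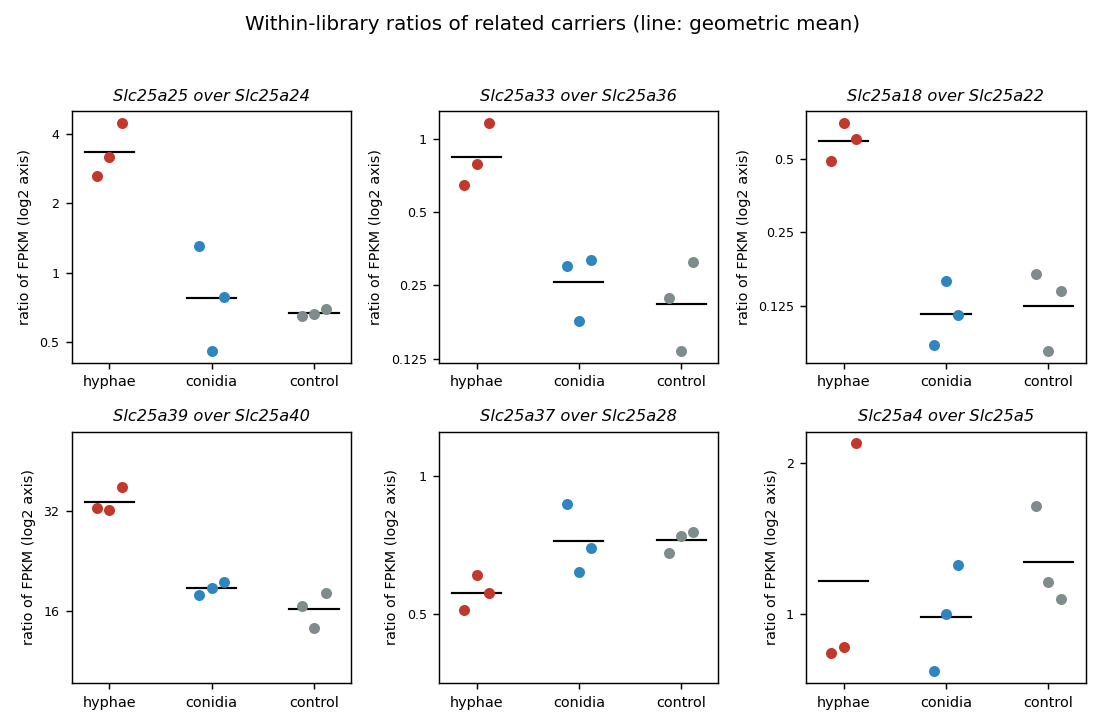
Ratio of FPKM of 6 pairs of related carriers within single libraries (points, log2 axes) for hyphae, conidia and control, with horizontal lines at the geometric mean of each group. The hyphae points of Slc25a25 over Slc25a24, Slc25a33 over Slc25a36, Slc25a18 over Slc25a22 and Slc25a39 over Slc25a40 lie above all others, and of those of Slc25a4 over Slc25a5 2 lie low, at 0.838 and 0.862, and 1 lies above all others, at 2.19.

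Conidia were compared with saline to see what spores alone had done to the carriers. No member was called in limma in either direction, against 0.596% of all genes that rose and 0.0945% that fell (0.298% and 0.0436% after rescaling, again with 0 members). At an unadjusted p under 0.05 there were 9 of 44 members (20.5%), against 21.1% of all genes. The 3 that lay higher were Ucp2 (log2 change 0.77, SE 0.15, adjusted p = 0.0595), Slc25a34 (0.66, adjusted p = 0.163) and Slc25a20 (0.32, adjusted p = 0.133). The 6 that lay lower ranged from Slc25a36 (−0.58, adjusted p = 0.114) to Slc25a51 (−0.28, adjusted p = 0.134), with Slc25a10, Slc25a17, Slc25a40 and Ucp3 between them. Slc25a36 was at 19.47, 30.03 and 23.53 FPKM in the conidia libraries and at 39.29, 37.45 and 32.86 in the control libraries, with no overlap.

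The absence of calls held in every setting except the fits without conidia replicate 2 and without hyphae replicate 1. Without any 1 of the control libraries, or without conidia replicate 3, 0 of all genes were called in either direction. Without conidia replicate 1, 1 of all genes was called higher and 0 lower. Without conidia replicate 2, which had the lowest Ucp2 level of its group, Ucp2 (0.94, adjusted p = 0.00496) and Slc25a34 (0.88, adjusted p = 0.0333) rose and Slc25a36 fell by 0.74 (adjusted p = 0.0209), and over all genes 641 were then called higher and 862 lower. Ucp2 was also called without hyphae replicate 1 (adjusted p = 0.05), a library outside this comparison that enters the shared estimate of the spread. Of 12 neutrophil markers 3 rose after conidia, none after rescaling, against 0.596% and 0.298% of all genes. Their summed FPKM was 3170, 877 and 2280 in conidia replicates 1, 2 and 3. Conidia replicate 1 also held the lowest of the 3 conidia values for 16 of the 23 carriers that fell in hyphae lungs, and its median carrier was at 6.66 FPKM, against 9 in replicate 2 and 10.9 in replicate 3. Slc25a45 and Slc25a42 were among them. The median of all genes was also lowest in conidia replicate 1, at 5.21 FPKM, against 6.05 in replicate 2 and 5.68 in replicate 3. The share of all genes with their lowest conidia value in replicate 1 was not counted. The parts of the library's level and of the neutrophil content in these values were not tested.

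Hyphae were also compared with conidia, to set the 2 forms of the fungus side by side. Of 44 members 6 were higher in hyphae lungs (13.6%) and 21 lower (47.7%), against 12.7% and 42.5% of all genes, and after rescaling 8 were higher (18.2%) and 16 lower (36.4%), against 25.4% in each direction. The family's median log2 change was −0.31, and that of all genes −0.29. This comparison shares its hyphae libraries with the comparison of hyphae and control, so the 2 are not independent. The members higher in hyphae lungs were Slc25a25 (log2 difference 2, adjusted p = 0.000356), Slc25a33 (1.32, adjusted p = 0.00145), Slc25a18 (0.91, adjusted p = 0.00514), Slc25a29 (0.61, adjusted p = 0.00936), Slc25a51 (0.55, adjusted p = 0.000909) and Slc25a28 (0.38, adjusted p = 0.0109). After rescaling they were at 2.32, 1.63, 1.17, 0.90, 0.88 and 0.71.

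Of the 8 risers against control, Ucp2 and Slc25a16 were not called between the 2 forms of the fungus. The log2 difference between hyphae and conidia was 0.02 for Ucp2 (SE 0.15, adjusted p = 0.944; 0.35 rescaled, adjusted p = 0.119). For Slc25a16 it was 0.27 (adjusted p = 0.0888), and this became a call after rescaling (0.59, adjusted p = 0.00295) and without hyphae replicate 3 (0.39, adjusted p = 0.0230), and it was 0.14 (adjusted p = 0.243) without hyphae replicate 1. Among the members lower in hyphae lungs than in conidia lungs, Slc25a45 (−1.97), Slc25a42 (−1.34) and Slc25a35 (−1.30) led, and these 3 kept their calls after rescaling. Also lower were Slc25a34 (−1.09), Slc25a27 (−1.02), Slc25a32 (−1.02), Slc25a22 (−0.91), Slc25a14 (−0.83) and Slc25a26 (−0.83). Slc25a34, an orphan carrier, was at 0.63, 0.27 and 0.66 FPKM in the hyphae libraries, at 2.29, 1.36 and 3.26 in the conidia libraries and at 1.13, 1.39 and 0.65 in the control libraries. Of the conidia libraries 2 lay above all others. No hyphae library of Slc25a34 reached 1 FPKM, so it entered the test through the other groups. Slc25a20 was also lower in hyphae lungs, with a log2 difference of −0.59 (adjusted p = 0.00126; −0.27 rescaled). The calls of Ucp3 (−0.53, adjusted p = 0.0232) and Slc25a23 (−0.52, adjusted p = 0.0450) rested on single libraries: that of Ucp3 was lost without any 1 of 4 libraries in turn (adjusted p = 0.0507 to 0.0843) and that of Slc25a23 without any 1 of 7 (adjusted p = 0.0551 to 0.147; −0.34 without hyphae replicate 3). The call of Slc25a23 was also lost after rescaling (−0.20, adjusted p = 0.323), without a filter on low values, with only the 2 groups compared and with the replicate block (adjusted p = 0.0591 to 0.0754 for these 3 alternatives).

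Other proteins that move solutes or carriers across the mitochondrial membranes were followed beside the family. In hyphae lungs 14.9% of all genes tested rose and 50.0% fell (30.0% and 29.3% after rescaling). These lists are small, and none was tested against those shares. Of 5 sideroflexins, serine carriers of a separate family, 4 fell in hyphae lungs with or without rescaling, led by Sfxn4 (−1.28), Sfxn3 (−1.17) and Sfxn1 (−1.01). Of the outer membrane channels 1 of 3 fell, Vdac3 (−1.10; −0.67 rescaled). Neither subunit of the pyruvate carrier passed the test as deposited, and Mpc1 was called at 0.75 after rescaling. Of 8 genes of the calcium uniporter and exchangers 1 rose, Letm1 (0.31), and 6 fell, led by Slc8b1 (−0.75) and Mcub (−0.62), and after rescaling 2 were higher and 1 lower, Slc8b1.

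Of 11 genes of the machinery that imports carriers, 2 rose, Tomm20 (0.58) and Timm29 (0.47), and 8 fell, led by Timm13 (−0.79). After rescaling 2 were higher and 1 lower. The shares of all genes were 14.9% higher and 50.0% lower (30.0% and 29.3% after rescaling). Both divergent relatives of the outer membrane, Mtch1 (−0.39) and Mtch2 (−0.57), fell as deposited and neither was called after rescaling. Of 8 regulators of mitochondrial genes tested, 1 rose, Ppard (0.74), and 4 fell, led by the nuclear receptors Esrra (−0.91) and Pparg (−0.88), while after rescaling 4 were higher and 2 lower. Pparg lost its call after rescaling (−0.52, adjusted p = 0.0941 in limma). Its control libraries were at 12.09, 5.10 and 7.12 FPKM, highest in replicate 1. None of the genes in these 7 lists was called between conidia and control. Few of all genes were called there, 0.596% higher and 0.0945% lower.

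Of 6 marker lists of lung cell types, 3 fell in most of their members in hyphae lungs and 3 did not. Among all genes tested, 50.0% fell and 14.9% rose (29.3% and 30.0% after rescaling). The lists are small, and none was tested against these shares. All 7 ciliated cell markers fell (6 after rescaling), with summed FPKM of 167 to 308 in the hyphae libraries, 336 to 401 in the conidia libraries and 362 to 523 in the control libraries. All 5 club cell markers fell (2 after rescaling), with summed FPKM of 32200 to 41200 in the hyphae libraries, 46900 to 64100 in the conidia libraries and 68700 to 125000 in the control libraries. Of 7 T and B cell markers 6 fell (4 after rescaling), with summed FPKM of 16.7 to 43.9 in the hyphae libraries, 20.3 to 105 in the conidia libraries and 73.8 to 133 in the control libraries. Of 7 endothelial markers 3 rose and 2 fell (4 and 1 after rescaling), with summed FPKM of 917 to 1080 in the hyphae libraries, 819 to 879 in the conidia libraries and 602 to 910 in the control libraries. Of 6 alveolar type 1 cell markers 1 rose and 1 fell (4 and 1 after rescaling), with summed FPKM of 2760 to 3220 in the hyphae libraries, 2940 to 3230 in the conidia libraries and 2070 to 2940 in the control libraries. Of 7 alveolar type 2 cell markers 0 rose and 3 fell (3 and 2 after rescaling), with summed FPKM of 25500 to 29700 in the hyphae libraries, 14600 to 25300 in the conidia libraries and 20000 to 29000 in the control libraries. Most of this sum was Sftpc, at 21037.79 to 24610.45 FPKM in the hyphae libraries. Most of the club cell sum was Scgb1a1, at 27860.45 to 33464.05 FPKM in the same libraries. No marker on these lists was at 0 in a whole group, and the part of these cells in the carriers that fell was not tested.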

How the data were processed

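Poly(A) RNA of whole lung was sequenced on a BGISEQ instrument, per the labels' protocols. The deposited values are FPKM per gene, per the file headers, with 1 file per library. The submitters' processing notes name HISAT, Bowtie2 and mm9, without roles or versions, and how the authors computed FPKM was not given in the sources at hand. The files hold no counts, so depth was approximated from the spacing of the smallest values, assuming fragments of 150 bases, and values near 0 are the least precise.

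Values were taken as log2(FPKM + 1), which understates changes at low levels. The 13761 genes that reached 1 FPKM in 3 or more of the 9 libraries entered 1 robust limma-trend fit over all 9 libraries (R 4.3.3, limma 3.58.1), with two-sided p-values adjusted by Benjamini and Hochberg over all of them and called under 0.05. Ranks and ratios use FPKM as deposited. The procedure was tested on simulated data.

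The members, gene lists and tests were chosen with earlier results of these data known. Named in the text are the uncoupling proteins, up to 10 members with the largest rise and fall per comparison, the most abundant, pairs of related carriers, members not tested and up to 3 called genes per neighbouring list. The values of 1 member are not reported here, though counts over the family include it. Other members and Letm1 were named after their values were seen. No 2 libraries of a group were copies: among genes above 1 FPKM in the first of the 2, at most 0.370% had identical values. A total of 17 alternatives were tried. Same-numbered libraries of different groups did not deviate together (2 of 9 pairs over a correlation of 0.1), so no pairing was used.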

Additional observations from a re-analysis of the deposited data

How the results depend on the processing

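Over the 17 alternatives, 23 of the 31 calls for hyphae against control and 20 of the 27 for hyphae against conidia were kept in every setting that could test them, and 27 and 25 were kept when each library was left out in turn. Slc25a43 is counted as kept in all of these, although only 12 alternatives, among them 6 of the fits without 1 library, could test it. Leaving out 1 library gave 6 to 8 higher and 20 to 24 lower members for hyphae against control, 6 to 7 higher and 18 to 22 lower for hyphae against conidia, and 0 to 2 higher and 0 to 1 lower for conidia against control. Each of these fits tested 13643 to 13717 genes in all. They called 1624 to 2077 genes higher and 5995 to 6959 lower for hyphae against control. For hyphae against conidia they called 1277 to 1718 higher and 4613 to 6180 lower. For conidia against control they called 0 to 641 higher and 0 to 862 lower. Median-of-ratios rescaling ended 6 and 5 of the calls. It turned the direction of Slc25a3 (0.32), Slc25a24 (0.34), Slc25a20 (0.14) and Slc25a39 (0.10) for hyphae against control and of Slc25a24 (0.31) for hyphae against conidia, with the same values under rescaling together with the replicate block. Members called under neither scaling changed sign too, among them Slc25a4 (0.17) and Slc25a5 (0.29) for hyphae against control. Rescaling divides all genes of a library alike, and which scaling is nearer to RNA amounts per lung was not tested. Fitting the replicate number as a block, although the numbers do not pair the libraries, gave 7 higher and 21 lower members for hyphae against control, 6 and 20 for hyphae against conidia and 0 for conidia against control. Of all 13761 genes the block gave 1925 higher and 6637 lower, 1629 and 5529, and 50 and 7, in the same order of comparisons. The counts of called members under the other filters, the smaller pseudocount, the fit without the robust option and the fit of only the groups compared were within 1.5 times those reported. With no counts held, differences of members near 1 FPKM or lower rest on few fragments.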
